A study of Mus musculus with 8 samples.

Results

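The 39 genes of meiotic prophase and recombination were followed in RNA-seq of whole mouse testis. They were chosen by symbol, as genes of the synaptonemal complex, the meiotic cohesins, recombination and the entry into meiosis. Each symbol matched 1 Ensembl gene row of the 55421 in the deposited files, and the 39 of 39 passed the filter on low counts.

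Testis RNA was sequenced from wild-type male mice in 4 groups of 2 libraries. CTRL received phosphate-buffered saline. The remaining groups were injected into the peritoneum with LPS, lipopolysaccharide from bacteria, which provokes inflammation. In LPS+DHEA this was followed 6 h later by DHEA, a steroid from which androgens are made, and in LPS+DHEA+Nb by DHEA combined with Nb23-bi, which the labels name without describing. The labels give no second injection for LPS, so the agents cannot be told apart from the injection. The sources used here state neither strain, age, doses nor the time of collection, and do not say whether a group's libraries are from different mice. Every error and p-value below therefore rests on the spread between libraries, which may be technical. In the tests, the spread of each gene was drawn toward a trend over all genes tested.

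In meiotic prophase, homologous chromosomes pair, exchange DNA and are held together by a protein zipper, the synaptonemal complex. Axis proteins organise each chromosome, the transverse filament and central element join the pair, and meiosis-specific cohesins hold sister chromatids. SPO11 cuts the DNA, the recombinase DMC1 carries out strand exchange, and MutS and MutL homologues turn some of the breaks into crossovers. In testis these genes are transcribed in spermatocytes, the germ cells between the spermatogonia and the spermatids.

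The tissue label is testis, although the text on RNA extraction speaks of islets. Germ cell genes and somatic genes of the testis were both present. Each library held 61291062 to 64521795 estimated counts. Summed over marker lists, spermatids held 25100 to 28700 CPM (the counts scaled for library size), pachytene spermatocytes 8620 to 8890, spermatogonia 260 to 288, Sertoli cells 1120 to 1420 and Leydig cells 638 to 1030. Lists of macrophages (65.8 to 76.7 CPM), neutrophils (0.766 to 5.7) and epididymis (3.36 to 5.58, with Lcn5 at 0 counts in every library) were low. In whole tissue, fewer cells of a type and less RNA per cell cannot be told apart.

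The 39 genes together took 0.266 to 0.29% of the counts of a library. Their sum was 2949 and 2681 (CTRL), 2726 and 2632 (LPS), 2741 and 2825 (LPS+DHEA) and 2908 and 2824 CPM (LPS+DHEA+Nb). The highest library was 1.12 times the lowest, and the groups overlapped except that both LPS+DHEA+Nb and both LPS+DHEA libraries lay above both LPS libraries. Stag3, which encodes a subunit of the meiotic cohesin ring, was the most counted gene at a mean of 423 CPM, or 15.2% of the sum. With the central element gene Syce1, the axis gene Sycp2, the cohesin gene Smc1b and the transverse filament gene Sycp1 it made up 50.7%.

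Per length, the mean levels spanned 1880-fold. RPKM is used here as CPM per 1000 bases of annotated exon. Syce1 was highest at a mean of 220 RPKM, and Mei4, a partner of SPO11 in making breaks, was lowest at 0.117 RPKM. The median was 7.72 RPKM, against 1.66 over the 26414 genes tested, and 36 of the 39 lay above the latter. Sycp3, a main component of the chromosome axis, followed Syce1 at 110 RPKM. Ccna1, a cyclin of meiotic cells, had 76.8, Stag3 73.8, Psmc3ip (a cofactor of DMC1) 67.7 and Syce2 61.7 RPKM. At the low end were Rec114 (1.99 RPKM), the histone methyltransferase gene Prdm9 (1.29), which places the breaks, and the cohesin gene Rad21l (1.03).

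**Figure D1:**
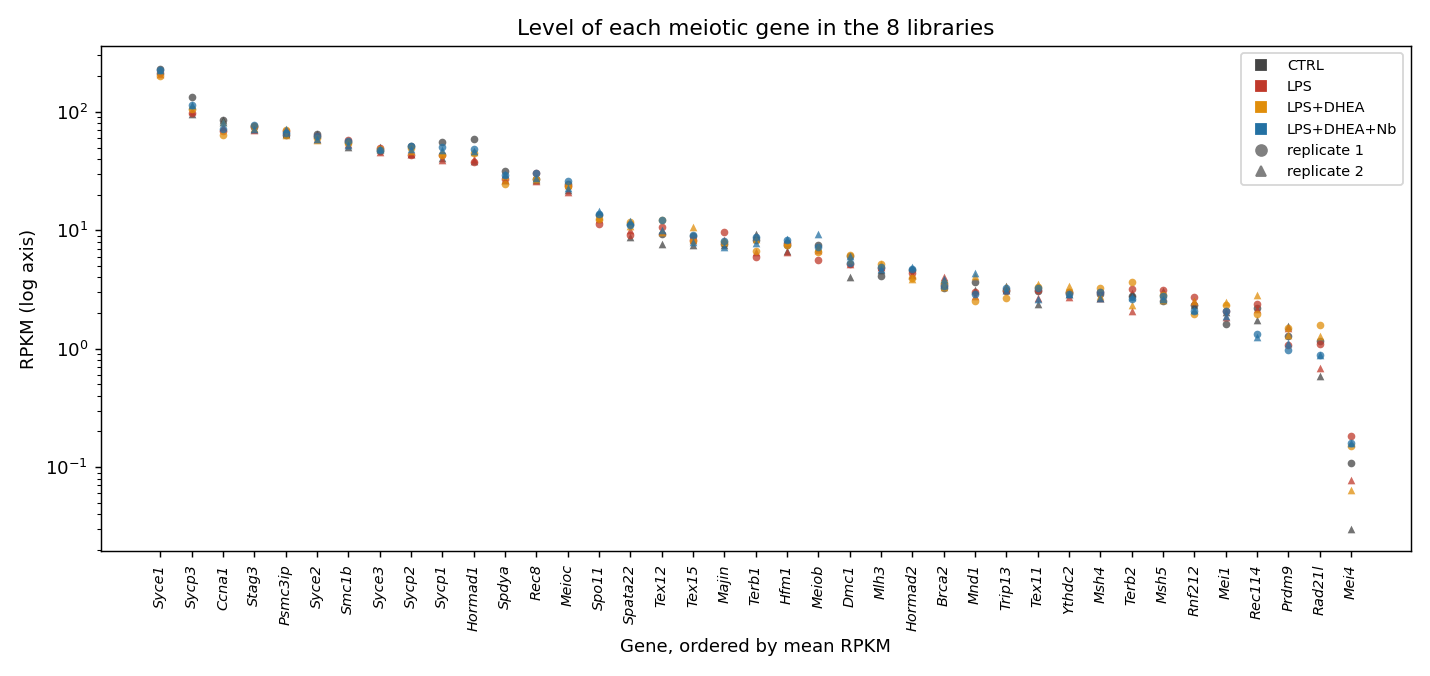
RPKM (log axis) of the 39 genes in each of the 8 libraries, ordered by mean, with colour for the group and shape for the replicate. The order runs from Syce1 (220 RPKM) to Mei4 (0.117 RPKM). The 8 points of most genes lie close together compared with this span, while neighbours in the order mostly overlap.

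Neighbours in this order mostly could not be separated. In 32 of 38 neighbouring pairs the ranges over the 8 libraries overlapped. The 6 gaps lay between Syce1 and Sycp3, Sycp3 and Ccna1, Syce2 and Smc1b, Hormad1 and Spdya, Meioc and Spo11, and Rad21l and Mei4. Within a gene, the highest library was 1.32 times the lowest at the median, and under 1.5 times in 27 genes. It was over 2 times in 3 genes, Rec114 (2.27), Rad21l (2.7) and Mei4 (6.04), which were among the 4 lowest per length. Mei4 had 28 and 8 counts (CTRL), 48 and 20 (LPS), 40 and 16 (LPS+DHEA) and 42 and 42 (LPS+DHEA+Nb), so its spread rests on few counts.

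Upstream sequences were looked at for letters that factors of this gene class are known for. E2F6 and MGA, which bind E2F sites and E-boxes, are known to keep many meiotic genes silent outside the germ line, and STRA8 and MYBL1 are known activators of meiosis. RefSeq (GRCm38.p6) gave 37 promoter windows for 32 of the 39 genes. The 250 bases before each start were searched on both strands, and the 4 motifs could overlap each other. RefSeq starts need not match the GENCODE gene ends used for positions elsewhere, and that of Mei1 lies 12480 bases inside the gene. The E-box CACGTG was in 21.6% of the windows of these genes and in 6.02% of all 32851 windows, and the E2F core (GCGGGAA or GCGCGAA) was in 32.4% and 5%. By gene, the E-box was in 7 of 32 and the E2F core in 11, as the 2 Hormad1 windows nearly coincide and hold the same sites. The STRA8 core CCTCAG (24.3% and 22.3%) and MYB sites (CAACGG with its variant CAACTG, and TAACGG with its variant TAACTG; 32.4% and 23.7%) were nearer to the share over all windows. Median GC content was 60% in these windows and 52.4% over all of them, and its part in the shares was not tested. A match is a description of letters and not a measured binding site.

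Written 5′ to 3′, the windows of Sycp3, Hormad1, Tex12 and Stag3 are given because they hold both the E-box and the E2F core, as did that of Syce2. Those of Rec114 and Terb1 are given because these genes had the smallest p across the groups. Of these, the RefSeq start lies 2405 bases inside the GENCODE gene for Rec114 and 269 for Stag3, and 0 to 57 for the other 4, so the windows of Rec114 and Stag3 lie wholly inside the GENCODE gene. Capitals mark every match of the 4 motifs.
Sycp3 (chr10:88459337-88459586, plus strand): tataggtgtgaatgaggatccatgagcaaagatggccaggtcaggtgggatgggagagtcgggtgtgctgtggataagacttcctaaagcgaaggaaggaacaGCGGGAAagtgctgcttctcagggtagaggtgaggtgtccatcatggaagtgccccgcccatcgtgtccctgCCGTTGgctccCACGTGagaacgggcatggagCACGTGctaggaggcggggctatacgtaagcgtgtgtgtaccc
Hormad1 (chr3:95559427-95559676, plus strand): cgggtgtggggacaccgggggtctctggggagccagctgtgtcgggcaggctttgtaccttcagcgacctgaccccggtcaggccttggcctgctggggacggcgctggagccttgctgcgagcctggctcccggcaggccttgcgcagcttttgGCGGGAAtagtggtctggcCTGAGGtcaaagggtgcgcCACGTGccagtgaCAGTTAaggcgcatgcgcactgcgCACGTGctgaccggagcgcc
Tex12 (chr9:50561269-50561518, minus strand): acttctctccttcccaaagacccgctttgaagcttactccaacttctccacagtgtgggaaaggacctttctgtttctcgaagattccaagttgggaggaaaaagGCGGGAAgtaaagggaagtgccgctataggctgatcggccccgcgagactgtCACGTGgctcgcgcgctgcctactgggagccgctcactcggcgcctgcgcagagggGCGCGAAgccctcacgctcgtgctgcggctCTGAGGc
Stag3 (chr5:138280259-138280508, plus strand): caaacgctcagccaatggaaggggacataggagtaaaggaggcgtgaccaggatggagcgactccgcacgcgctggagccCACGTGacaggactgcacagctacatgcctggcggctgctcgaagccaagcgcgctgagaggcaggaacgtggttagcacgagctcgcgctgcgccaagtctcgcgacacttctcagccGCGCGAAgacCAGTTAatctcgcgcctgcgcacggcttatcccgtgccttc
Rec114 (chr9:58741560-58741809, minus strand): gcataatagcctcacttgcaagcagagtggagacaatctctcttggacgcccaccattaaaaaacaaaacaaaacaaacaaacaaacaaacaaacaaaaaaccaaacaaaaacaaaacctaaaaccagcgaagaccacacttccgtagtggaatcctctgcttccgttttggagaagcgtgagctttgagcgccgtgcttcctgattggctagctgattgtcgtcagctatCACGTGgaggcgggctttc
Terb1 (chr8:104509888-104510137, minus strand): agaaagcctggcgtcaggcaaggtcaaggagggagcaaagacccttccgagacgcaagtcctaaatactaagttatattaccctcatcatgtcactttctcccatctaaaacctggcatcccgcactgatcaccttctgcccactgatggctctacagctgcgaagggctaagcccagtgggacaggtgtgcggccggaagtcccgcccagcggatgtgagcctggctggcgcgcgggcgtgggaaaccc
Rec114 held 1 E-box and Terb1 held none of the 4 motifs in this window.

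No gene of the 39 passed the test in any comparison. The tests were edgeR's quasi-likelihood tests over 26414 genes with Benjamini-Hochberg adjustment, called at an adjusted p under 0.05. In LPS versus CTRL, 0 of 39 were called where 0.295% of all genes were, and 2 had an unadjusted p under 0.05 (7.11% of all genes did). LPS+DHEA versus CTRL also gave 0 of 39 (0.151% of all genes called), with 2 at an unadjusted p under 0.05 (5.72% of all genes). LPS+DHEA+Nb versus CTRL gave 0 (0.0303%) and 3 unadjusted (4.28%). Against LPS, 0 were called for LPS+DHEA (0.0189%), with 0 unadjusted (3.51%), and 0 for LPS+DHEA+Nb (0.17%), with 5 unadjusted (6.56%). LPS+DHEA+Nb versus LPS+DHEA gave 0 (0.0871%) and 2 unadjusted (4.4%). These 6 comparisons share groups and are not independent. A test of any difference among the 4 groups called 0 of 39 (0.239%), with a smallest adjusted p of 0.677. DESeq2 and limma-voom likewise called 0 of the 39 in each of these.

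The intervals give the range of fold changes around each estimate, without adjustment for the number of genes. An interval inside a given fold does not mean that a change of that size would have passed the adjusted test. In LPS versus CTRL the 95% interval of the log2 fold change lay within a 2-fold change either way for 38 genes, the exception being Mei4, and within 1.5-fold for 29. Over the other comparisons 36 to 37 genes lay within 2-fold and 29 to 31 within 1.5-fold. Mei4 was outside 2-fold in all 6 comparisons, Rec114 in the 3 with LPS+DHEA+Nb, and Rad21l in the 3 that used the LPS+DHEA libraries. Stag3, the most counted, had a log2 fold change of -0.01 in LPS versus CTRL (95% interval -0.16 to 0.13).

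The median log2 fold change of the 39 was -0.02 in LPS versus CTRL, with 18 above 0 and 21 below, and 0 over all genes. It was 0.01 in LPS+DHEA and 0.04 in LPS+DHEA+Nb versus CTRL, against 0.01 and 0. Versus LPS it was 0.1 in LPS+DHEA and 0.04 in LPS+DHEA+Nb, both with 27 of 39 above 0, and 0 over all genes. Those 2 comparisons share the LPS libraries and rest on them. Without LPS replicate 2 the median was 0.002 with 20 of 39 above 0 in LPS+DHEA and 0.028 with 21 in LPS+DHEA+Nb, and without LPS replicate 1 it was 0.087 with 29 and 0.122 with 31. The median size of the change, 0.08 to 0.13, was below the 0.15 to 0.18 of all genes in each of the 6 comparisons. The 39 also lay at a higher level (median 7.72 against 1.66 RPKM), and the part of level in this difference was not tested.

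**Figure D2:**
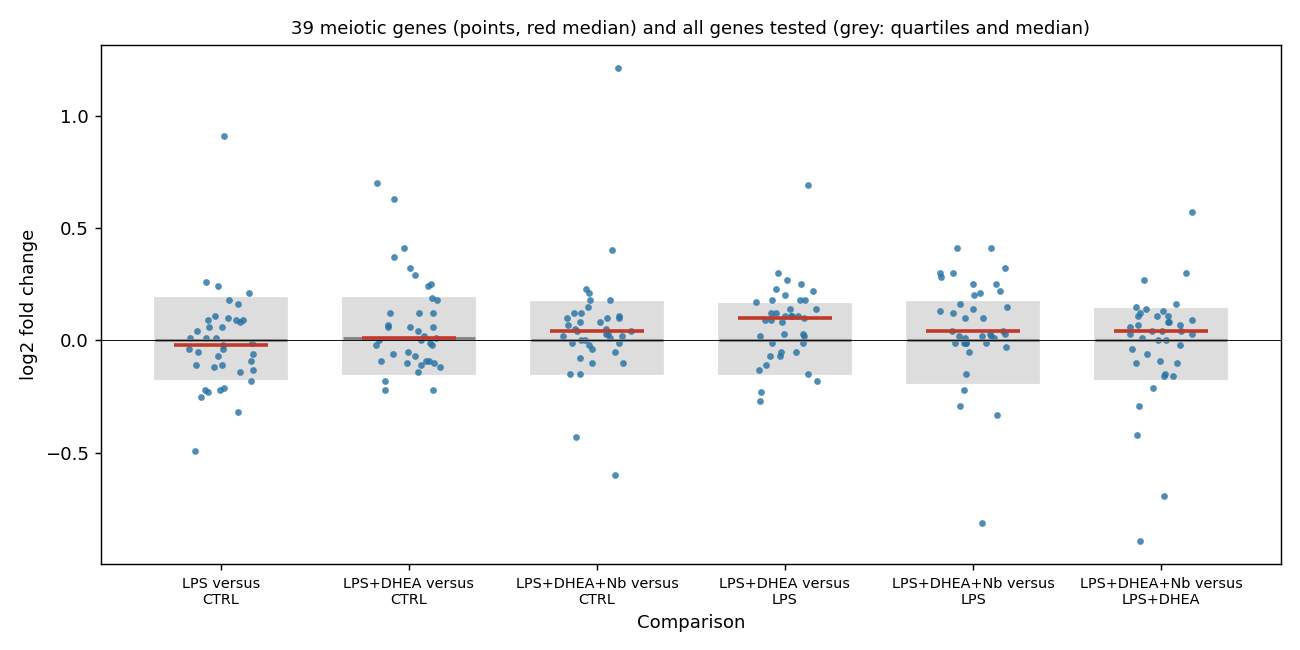
Log2 fold changes (vertical axis) of the 39 genes in the 6 comparisons, as points with a red median, over the quartiles and median of all 26414 genes tested in grey. The medians of the 39 lie between -0.02 and 0.1.

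Among the 8 roles, the axis genes showed the largest gap in summed level between 2 libraries of 1 group, in CTRL. Hormad1 (ENSMUSG00000028109, GRCm38 chr3:95559677-95587671), which marks unsynapsed axes and whose upstream window held 2 E-boxes, had 101 and 67.3 (CTRL), 65.8 and 69.3 (LPS), 77.3 and 79.8 (LPS+DHEA) and 85 and 81.5 CPM (LPS+DHEA+Nb). Only CTRL replicate 1 stood above 85 CPM, and CTRL replicate 2 lay among the LPS libraries. The log2 fold change in LPS versus CTRL was -0.32 (95% interval -0.69 to 0.05, adjusted p = 0.767). Without CTRL replicate 2 it was -0.58 and the gene was called (adjusted p = 0.0363), and without CTRL replicate 1 it was 0.004 (adjusted p = 1), so the difference rests on 1 library.

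Sycp3 had 170 and 122 (CTRL), 124 and 129 (LPS), 133 and 142 (LPS+DHEA) and 146 and 144 CPM (LPS+DHEA+Nb). It was likewise highest in CTRL replicate 1 and lowest in replicate 2. Of its annotated exon bases, 52.2% also belong to Chpt1 on the opposite strand, and without the strand setting the reads of both cannot be told apart. Chpt1 was at 66.2 to 85.7 CPM and highest in CTRL replicate 1 as well. Sycp2, Sycp3's partner in the axis, ranged from 258 to 310 CPM, and Trip13, an ATPase that removes HORMA proteins from synapsed axes, from 9.34 to 11.7 CPM. Hormad2, a relative of Hormad1, had 12.7 and 11.4 (CTRL), 12 and 11.4 (LPS), 10.9 and 10.5 (LPS+DHEA) and 12.8 and 13.4 CPM (LPS+DHEA+Nb). Its LPS+DHEA libraries were the lowest (2.82% of all genes had this) and its LPS+DHEA+Nb libraries the highest (3.46%). It did not pass in LPS+DHEA+Nb versus LPS+DHEA (log2 fold change 0.3, SE 0.13, 95% interval 0.01 to 0.58, adjusted p = 1).

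Summed over these 5 axis genes, CTRL had 604.5 and 477 CPM, LPS 470.5 and 484.9, LPS+DHEA 528.3 and 521.3, and LPS+DHEA+Nb 564.8 and 543.1. In these sums, LPS libraries were lowest except for CTRL replicate 2, which lay between them. The 5 log2 fold changes in LPS versus CTRL were below 0, from -0.32 (Hormad1) to -0.04 (Hormad2 and Trip13). In LPS+DHEA+Nb versus LPS the 5 were above 0. These shared signs were not tested. The pachytene list was at 8880 and 8890 CPM in CTRL replicates 1 and 2, and the spermatogonial list at 288 and 266.

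**Figure D3:**
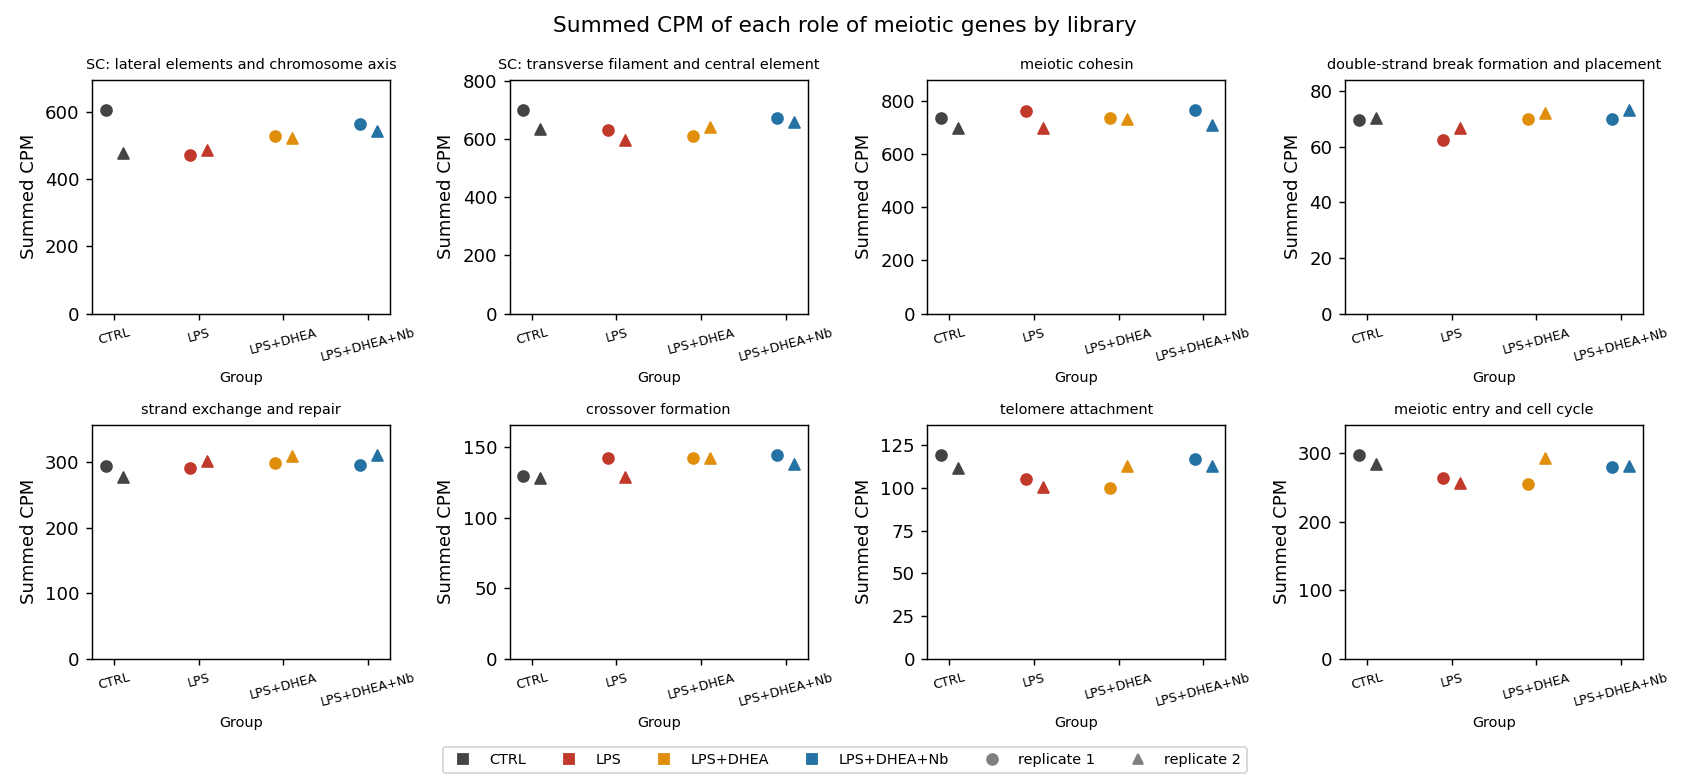
Summed CPM (vertical axis, from 0) of each of the 8 roles in each library, by group, with shape for the replicate. CTRL replicate 1 stands apart in the axis genes (604.5 against 470.5 to 564.8 CPM elsewhere), while the cohesin sums stay between 696.6 and 764.3 CPM.

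In the transverse filament and central element, Sycp1 shared the high value in CTRL replicate 1. It had 198 and 144 (CTRL), 156 and 139 (LPS), 155 and 164 (LPS+DHEA) and 180 and 169 CPM (LPS+DHEA+Nb). Of the central element genes, 3 varied little between libraries, with Syce1 at 297 to 338 CPM, Syce2 at 115 to 129 and Syce3 at 25.5 to 27.8. Syce2 lay above the 6 other libraries in both CTRL libraries (127 and 129 CPM, against 124 at most), as 4.22% of all genes did.

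CTRL replicate 1 exceeded replicate 2 in 27 of the 39 genes (69.2%, against 49.6% of all genes tested), and LPS replicate 1 exceeded replicate 2 in 25 (64.1% against 49.1%). Replicate 1 was the higher in 18 genes in LPS+DHEA (46.2% against 50.4%) and in 21 in LPS+DHEA+Nb (53.8% against 49.6%). In CTRL the ratio was largest for the low genes Mei4 (3.58) and Rad21l (1.98). The level in replicate 1 was 1.5 times that in replicate 2 for Hormad1 and Dmc1, 1.39 times for Sycp3, 1.37 times for Sycp1 and 1.3 times for Spata22 and Tex11. The ratio was the other way for Mei1 (0.795), Prdm9 (0.813), Msh5 (0.827) and Brca2 (0.851). Over the 39, the median size of the log2 difference between the 2 libraries of a group was largest in CTRL, at 0.16. It was 0.13 in LPS+DHEA, 0.11 in LPS and 0.09 in LPS+DHEA+Nb. Over all genes tested it was 0.17 in each of the 4 groups. The part of expression level in the gap between the 39 and all genes was not tested.

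Tex12, the remaining central element gene, varied more (highest library 1.61 times the lowest), at 9.51 and 7.8 (CTRL), 10.7 and 9.98 (LPS), 12.5 and 9.88 (LPS+DHEA) and 12.5 and 10.3 CPM (LPS+DHEA+Nb). Both CTRL libraries lay below the other 6, as in 4.44% of all genes. It had the smallest p of the 39 in LPS+DHEA+Nb versus CTRL and did not pass (log2 fold change 0.4, SE 0.17, 95% interval 0.01 to 0.78, adjusted p = 1).

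Cohesin genes varied least in sum, the highest library being 1.1 times the lowest. Stag3 ranged from 400 to 443 CPM, Smc1b, the meiotic SMC1, from 204 to 235, and Rec8, the meiotic kleisin, from 76.3 to 89.7. Rad21l, a second kleisin, was far lower, at 1.95 and 0.984 (CTRL), 1.83 and 1.14 (LPS), 2.66 and 2.11 (LPS+DHEA) and 1.48 and 1.47 CPM (LPS+DHEA+Nb). Its LPS+DHEA libraries were the highest, as in 3.24% of all genes. The log2 fold change versus CTRL was 0.7 (95% interval -0.13 to 1.54, adjusted p = 0.917).

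Among genes for double-strand breaks, Spo11 (ENSMUSG00000005883, GRCm38 chr2:172977700-172993576) was the only one of the 39 whose 4 groups did not overlap at all. In rising order it had 44.1 and 48.6 (LPS), 49 and 50.8 (LPS+DHEA), 53.2 and 51.6 (CTRL) and 53.5 and 57 CPM (LPS+DHEA+Nb). Of all genes, 1.22% had 4 groups apart in this way. Neighbouring groups were close, and Spo11 did not pass the test over the 4 groups (adjusted p = 0.984) or LPS versus CTRL (log2 fold change -0.18, 95% interval -0.37 to 0.01, adjusted p = 0.74).

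Rec114, which acts with MEI4 and SPO11 in making breaks, had 2.83 and 2.22 (CTRL), 3.07 and 2.75 (LPS), 2.53 and 3.65 (LPS+DHEA) and 1.71 and 1.61 CPM (LPS+DHEA+Nb). These stem from 102 to 223 counts. Both LPS+DHEA+Nb libraries lay below the 6 others, as 3.62% of all genes did. The log2 fold change was -0.81 versus LPS (SE 0.27, 95% interval -1.41 to -0.21, adjusted p = 0.565) and -0.89 versus LPS+DHEA (SE 0.27, 95% interval -1.49 to -0.3, adjusted p = 0.858). Leaving out single libraries or changing the tool moved the latter between -1.13 and -0.61, with adjusted p from 0.669 to 1. Of its exon bases, 26.9% are shared with Nptn on the opposite strand, and Nptn was at 28.7 and 29.6 CPM in LPS+DHEA+Nb and 25 to 34.1 elsewhere. Rec114 (ENSMUSG00000074269) lies on the minus strand at GRCm38 chr9:58652850-58743964.

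Mei1, another break gene, had 7.67 and 9.64 (CTRL), 9.82 and 8.79 (LPS), 11.2 and 11.8 (LPS+DHEA) and 9.8 and 9 CPM (LPS+DHEA+Nb). The LPS+DHEA libraries were the highest, as in 3.24% of all genes. Neither comparison passed (versus CTRL log2 fold change 0.41, SE 0.16, adjusted p = 0.776, and versus LPS 0.3, SE 0.16, adjusted p = 1). Prdm9 was at 4.23 to 6.72 CPM. Both its LPS+DHEA+Nb libraries (4.23 and 4.84) lay below both CTRL libraries (5.46 and 6.72), as in 16.5% of all genes.

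Summed over the 7 strand exchange genes, the highest library was 1.12 times the lowest, while single genes varied more. Dmc1 had 14.7 and 9.78 (CTRL), 12.7 and 12.8 (LPS), 15.1 and 13.7 (LPS+DHEA) and 13 and 14.7 CPM (LPS+DHEA+Nb). CTRL replicate 1 was 1.5 times replicate 2, as for Hormad1, while the LPS libraries were alike. Psmc3ip, at 117 to 131 CPM, exceeded its partner Mnd1, at 2.21 to 3.8 CPM. Per length these were 67.7 and 3.31 RPKM. Of the Psmc3ip exon bases, 21.2% overlap Mlx on the opposite strand, and Mlx was at 3.32 to 5.45 CPM. Brca2, which loads recombinases, ranged from 44 to 54.9 CPM, and Tex15 from 72.2 to 103 CPM. Meiob, whose protein binds single-stranded DNA together with that of Spata22, had 13.7 and 12.7 (CTRL), 10.2 and 12.2 (LPS), 11.7 and 13 (LPS+DHEA) and 13.1 and 16.8 CPM (LPS+DHEA+Nb). Both LPS+DHEA+Nb libraries lay above both LPS libraries, as in 18.1% of all genes. The difference did not pass (log2 fold change 0.41, SE 0.16, 95% interval 0.06 to 0.76, adjusted p = 0.679). Spata22 itself ranged from 11.1 to 15.4 CPM. It shares 80.5% of its exon bases with Gm49340 on the same strand, which was at 0 to 2.53 CPM.

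Crossover genes had log2 fold changes above 0 in 6 of 6 in LPS versus CTRL, from 0.01 (Hfm1) to 0.18 (Rnf212), none called. The libraries of these groups overlapped in Hfm1, Msh4, Msh5 and Tex11, and not in Mlh3 and Rnf212. The shared sign was not tested. Mlh3, a MutL homologue that acts in crossover formation, had 30.8 and 34.9 (CTRL), 36.3 and 36.8 (LPS), 38.9 and 39.1 (LPS+DHEA) and 37.1 and 35.6 CPM (LPS+DHEA+Nb). Both CTRL libraries were the lowest (4.44% of all genes had this) and both LPS+DHEA libraries the highest (3.24%). It had the smallest p of the 39 in LPS+DHEA versus CTRL (log2 fold change 0.25, SE 0.09, 95% interval 0.04 to 0.46, adjusted p = 0.763). The helicase gene Hfm1 had 50.1 and 45 (CTRL), 52.3 and 43.7 (LPS), 50.3 and 53.1 (LPS+DHEA) and 55.6 and 56 CPM (LPS+DHEA+Nb). Its LPS+DHEA+Nb libraries were the highest, as in 3.46% of all genes (versus CTRL log2 fold change 0.23, SE 0.1, adjusted p = 1). Msh4 and Msh5, which form 1 complex, ranged from 18.5 to 22.4 and from 14.1 to 17.2 CPM, or means of 2.88 and 2.81 RPKM. Tex11, the only X-linked gene of the 39, ranged from 8.64 to 12.7 CPM and Rnf212 from 3.22 to 4.5 CPM.

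Of the genes for telomere attachment, Terb1 had the smallest p of all 39 in LPS versus CTRL. TERB1, TERB2 and MAJIN tie telomeres to the nuclear envelope, where chromosomes move to find their partners. Terb1 had 31.1 and 34.7 (CTRL), 22.5 and 24.4 (LPS), 25.1 and 31.5 (LPS+DHEA) and 33.2 and 29.1 CPM (LPS+DHEA+Nb). Both LPS libraries lay below the 6 others, as 4.06% of all genes did, and the CTRL and LPS+DHEA+Nb libraries overlapped. The means were 32.9 ± 2.54 CPM in CTRL and 23.5 ± 1.35 in LPS (SD, n = 2 libraries each). The log2 fold change was -0.49 in LPS versus CTRL (SE 0.13, 95% interval -0.77 to -0.2, adjusted p = 0.266), 0.41 in LPS+DHEA+Nb versus LPS (SE 0.13, adjusted p = 0.506) and 0.27 in LPS+DHEA versus LPS (SE 0.13, adjusted p = 1). None passed, and the 3 share the LPS libraries. In LPS versus CTRL the alternatives gave -0.56 to -0.4, with adjusted p from 0.0681 to 0.734. Terb1 (ENSMUSG00000052616) lies on the minus strand at GRCm38 chr8:104446719-104509910, and no other gene's exons overlap it.

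The partners of Terb1 did not share this order. Majin was at 12.7 and 12.2 CPM in CTRL and 15.9 and 13.5 in LPS, its LPS libraries being above the 6 others (4.75% of all genes had this). Terb2 had 6.82 and 4.44 CPM in LPS and 7.76 and 4.95 in LPS+DHEA, gaps wider than those between its group means. Spdya, a cyclin-like activator of CDK2 at telomeres, ranged from 54.3 to 69.4 CPM.

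**Figure D4:**
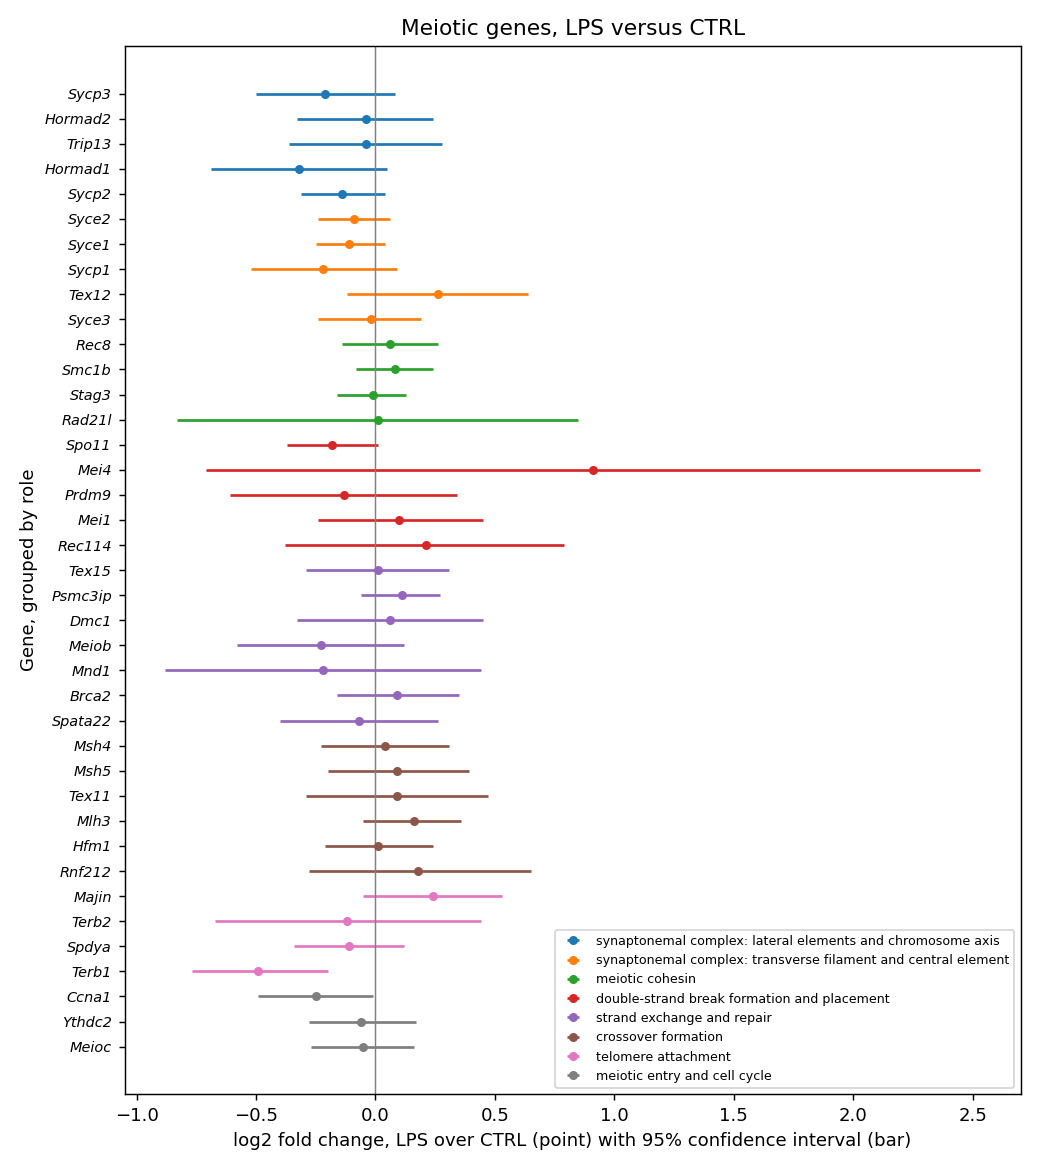
Log2 fold change of LPS over CTRL (points) with 95% confidence intervals (bars) for the 39 genes, coloured by role. The intervals of Terb1 and Ccna1 lie below 0 before adjustment, and that of Mei4 is the widest (-0.71 to 2.53).

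Ccna1, which is needed to leave prophase, had 157 and 156 (CTRL), 127 and 136 (LPS), 118 and 151 (LPS+DHEA) and 133 and 150 CPM (LPS+DHEA+Nb). Both CTRL libraries were above the 6 others, as in 4.22% of all genes. In LPS versus CTRL its log2 fold change was -0.25 (SE 0.11, 95% interval -0.49 to -0.01, adjusted p = 0.683). The entry genes Meioc and Ythdc2, which bind RNA together and keep germ cells in meiosis, ranged from 96.7 to 122 and from 24.1 to 30.1 CPM.

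**Figure D5:**
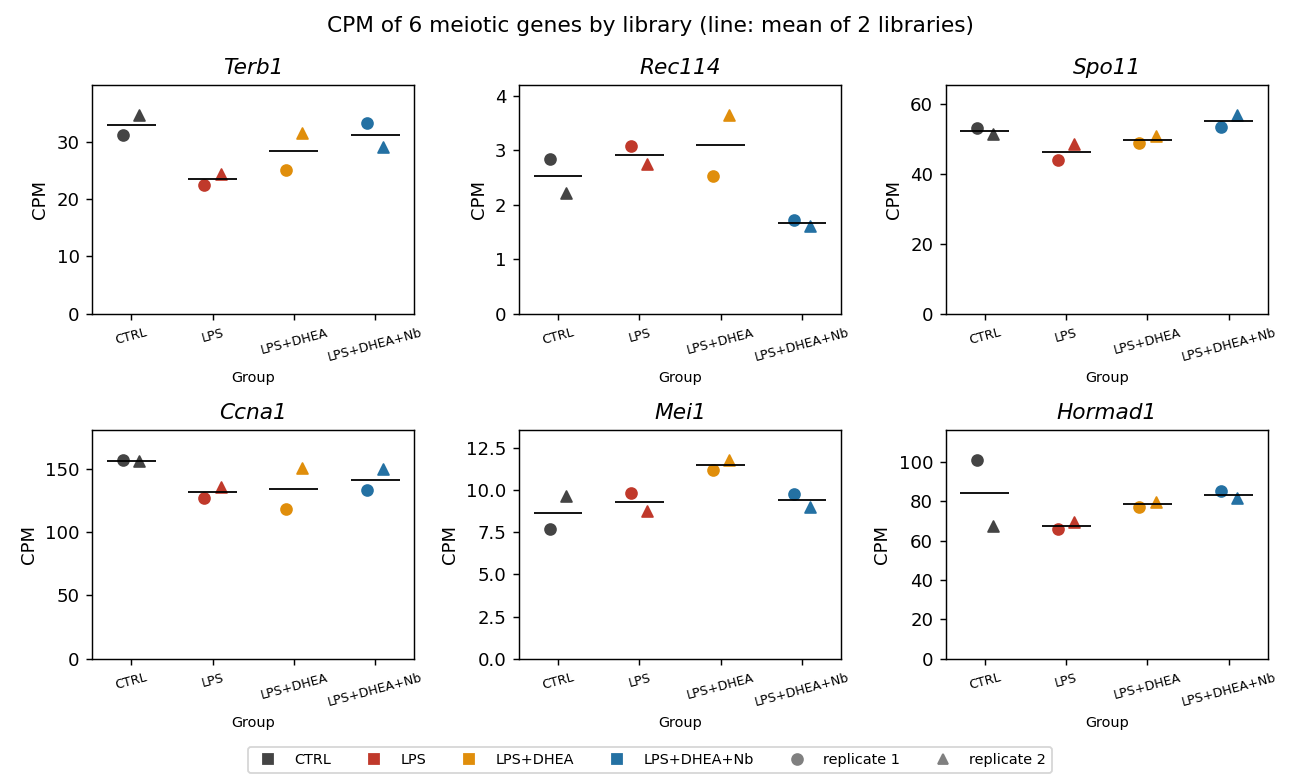
CPM (vertical axes, from 0) of Terb1, Rec114, Spo11, Ccna1, Mei1 and Hormad1 in each library, with a line at the mean of the 2 libraries of a group. Terb1 and Spo11 are lowest in LPS, Rec114 in LPS+DHEA+Nb, and Hormad1 is highest in CTRL replicate 1 (101 CPM).

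Counted over the 39, both libraries of LPS were above both of CTRL in 5 genes (12.8%, against 18.9% of all genes) and below in 7 (17.9% against 18.1%). LPS+DHEA versus CTRL gave 8 higher (20.5% against 18.6%) and 4 lower (10.3% against 16.6%), and LPS+DHEA+Nb versus CTRL 8 higher (20.5% against 16.4%) and 7 lower (17.9% against 16.5%). In LPS+DHEA versus LPS, 12 genes were higher in this sense (30.8% against 16.1%) and 3 lower (7.69% against 15.7%). In LPS+DHEA+Nb versus LPS, 13 were higher (33.3% against 18.1%), among them Sycp1, Sycp2, Sycp3, Hormad1, Hormad2 and Syce1, and 4 lower (10.3% against 18.6%). In LPS+DHEA+Nb versus LPS+DHEA, 11 were higher (28.2% against 15.7%) and 7 lower (17.9% against 17.1%). Both LPS+DHEA libraries lay above the 6 others for Rad21l, Mei1, Mlh3, Tex11 and Ythdc2 (12.8% of the 39, against 3.24% of all genes). This was the largest of the counts of a group above or below the 6 others. The rest were 1 to 3 genes, or 2.56 to 7.69% of the 39, against 2.82 to 4.75% of all genes. Genes transcribed in the same cells need not be independent of each other, and the shares were not tested.

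A list of other prophase genes that are not among the 39 gave the same count. Of 33 matched genes, 0 were called as higher and 0 as lower in each of the 6 comparisons, with median log2 fold changes of -0.02 to 0.04. Their sum was 2980 to 3140 CPM, with 3100 and 3130 in CTRL and 3130 and 3090 in LPS. The chaperone gene Hspa2, which spermatocytes express strongly, made up 1500 to 1670 CPM of it. In LPS versus CTRL the smallest p belonged to Rad51ap2, with a log2 fold change of -0.75 (SE 0.24, adjusted p = 0.449). Its CTRL libraries had 9.76 and 6.14 CPM and its LPS libraries 4.56 and 4.91. CTRL replicate 1 was again the highest library. In the same comparison Meikin came next, a regulator of kinetochores in meiosis, at 0.22 (SE 0.11, adjusted p = 0.755), with CTRL libraries at 13.5 and 13.3 CPM and LPS libraries at 15.7 and 15.6. A smaller p stood in LPS+DHEA+Nb versus LPS+DHEA for Stra8, named here after its values were seen, at -0.57 (SE 0.15, adjusted p = 0.558). Stra8 had 7.86 and 8.87 (CTRL), 9.77 and 8.99 (LPS), 10.9 and 11.8 (LPS+DHEA) and 8.05 and 7.17 CPM (LPS+DHEA+Nb). Both LPS+DHEA libraries were the highest, as in 3.24% of all genes.

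Marker lists of germ cell stages also gave no call. Of these stages, pachytene is itself part of meiotic prophase, and its list shares Hspa2, Mybl1 and Tcfl5 with the other prophase genes. None of 14 spermatogonial, 14 pachytene and 16 spermatid genes tested passed in any of the 6 comparisons, and their medians in LPS versus CTRL were 0.02, -0.09 and -0.09. Spermatid genes summed to 28200 and 28700 CPM in CTRL and 25400 and 25900 in LPS. Among somatic markers, the smooth muscle actin gene Acta2 rose in LPS versus CTRL (log2 fold change 1.1, adjusted p = 0.000737), and so did the neutrophil gene S100a8 (adjusted p = 0.0237). The sum over Sertoli genes was 1130 to 1140 CPM in CTRL and 1350 to 1410 in LPS, and over Leydig genes 881 to 1030 and 708 to 738. The part of these shifts in the levels of the meiotic genes was not tested.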

How the data were processed

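RNA-seq of mouse testis gave 8 libraries, 2 in each of 4 groups, grouped by their titles. Each library has 1 deposited table of Ensembl genes, whose values were taken as estimated counts (also called expected counts) with no scaling; the tests are those planned for raw counts. They are whole numbers, but 33.5% of values from 1 to 40 are multiples of 4, against 25% from 1000 to 10000, so each may not be 1 fragment. Per the submitters' processing notes, HISAT and featureCounts 1.5.0-p3 were used with GRCm38, with no role or order. Per the labels' protocols the kit was stranded. The sources used here do not say how strand and multiply matching reads were treated. CPM was computed in edgeR from the TMM-scaled library totals.

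Genes were filtered with filterByExpr (minimum count 10, minimum total 15), which kept 26414 of 55421, and scaled by TMM (factors 0.985 to 1.015). edgeR 4.0.16 (R 4.3.3) fitted its quasi-likelihood model to all 8 libraries at once, with 1 mean per group. This leaves 4 residual degrees of freedom. With the spread of each gene drawn toward the trend over all genes, the median total was 10.8 degrees of freedom for the 39. The scripts were checked on simulated counts for LPS versus CTRL. They recovered 12% of planted 1.5-fold changes, 42% of 2-fold, 64% of 4-fold and 74% of 8-fold. The planted changes were in genes drawn from all those tested, and not from the 39 alone. The SE is the log2 fold change divided by the square root of F. Positions, exon lengths and overlaps come from GENCODE M21 (GRCm38). The 39 genes and all lists were chosen with earlier results of these data known. All 39 are named, with full test values for the 2 with the smallest p in each comparison and the 3 with the smallest p over the 4 groups. The test values of Hormad1, Stag3, Rad21l, Mei4 and Meiob were added after they had been seen. The list of other prophase genes matched 33 genes, not Shoc1, Spo16 or Meiosin, and shares Stra8, Hspa2, Mybl1 and Tcfl5 with the stage lists. Alternatives were DESeq2 1.42.0 and its size factors, limma-voom 3.58.1, no filter, only the compared groups, counts divided by 4, the replicate number as a block, and each library left out.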

Additional observations from a re-analysis of the deposited data

How the results depend on the processing

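The count of 0 of the 39 genes called held in each test that was run under an alternative, with 1 exception. The test over the 4 groups was not run with only the compared groups. Leaving out single libraries gave 0 to 1 in LPS versus CTRL, the 1 being Hormad1 without CTRL replicate 2. The fold changes between groups named for their small p kept their direction and stayed uncalled in 180 of 180 alternative values. The ratio of each group's sum to that of CTRL was also taken with the plain library total, or from medians over the 39. It moved by less than the SD of the ratio, which was taken from the 2 libraries of each group.

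The counts over all genes, which serve as background, moved more. LPS versus CTRL gave 78, and 140 without a filter, 281 with DESeq2, 49 with limma-voom and 66 to 118 with single libraries left out (118 without LPS replicate 1). LPS+DHEA versus CTRL gave 40, and 80, 173, 23, 61 with only the compared groups, and 27 to 65 (64 and 65 without LPS+DHEA+Nb replicate 1 or 2). LPS+DHEA+Nb versus CTRL gave 8, and 17, 76, 4 with limma-voom and 8 to 37 (27 without CTRL replicate 1 or 2, 13 without LPS replicate 1, 37 and 31 without LPS+DHEA+Nb replicate 1 and 2). LPS+DHEA versus LPS gave 5, and 10 without a filter, 37 with DESeq2, 20 with only the compared groups and 10 to 24, each of the 8 libraries moving it. LPS+DHEA+Nb versus LPS gave 45, and 87, 204, 19 with only the compared groups and 43 to 88 (74 without LPS replicate 1, 88 without LPS+DHEA+Nb replicate 1). LPS+DHEA+Nb versus LPS+DHEA gave 23, and 42, 107, 11 with limma-voom, 40 with only the compared groups and 16 to 64 (36 without CTRL replicate 1, 64 and 39 without LPS+DHEA+Nb replicate 1 and 2). The test over the 4 groups gave 63, and 155, 354 and 65 to 131 (105 without LPS replicate 1, 131 and 109 without LPS+DHEA+Nb replicate 1 and 2). The cause was not tested. Counted with the plain library total in place of TMM, an alternative chosen after seeing the data, 2 genes in place of 1 had both LPS libraries above the 6 others.

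With the replicate number as a block, 0 of the 39 genes were called in each test, and the count over all genes was 62 in LPS versus CTRL. The labels do not say that a number marks a pair, and the replicate differences of 2 groups correlated at -0.045 to 0.0918 over 18407 genes, so the numbers were not taken to pair the libraries. Mei4, Rad21l and Rec114 rest on 8 to 223 counts, and their intervals reached past 2-fold in some comparisons.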
